A study of Mus musculus with 12 samples.

Results

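The Ly49 receptors are a family of C-type lectin receptors encoded by the Klra genes of mouse chromosome 6. The members described here are the 10 genes Klra1 to Klra10, taken by symbol from the authors' comparison of CD8 T cells, and all 10 were found among its 24421 genes. The question of the series is how lymphocytes respond to loss of linker histone H1, a protein that binds the nucleosome and helps to compact chromatin. C57BL/6 mice were either wild type (WT) or carried a triple knockout of H1 genes labelled cTKO. Both genotypes gave sorted splenic B cells, CD8 T cells and CD4 T cells, 500000 cells a sample, which gives 12 samples in 6 groups of 2. Only the comparison of 2 WT with 2 cTKO CD8 T cell samples was used here, with 1 female and 1 male animal in each genotype. The age of the animals and the promoter or Cre driver behind the knockout were not given in the sources used here.

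Each Ly49 receptor sits in the membrane as a dimer and most members bind class I major histocompatibility (MHC) proteins on other cells. Inhibitory members carry a tyrosine motif in the cytoplasmic tail (ITIM) that recruits the phosphatase SHP-1, encoded by Ptpn6. Activating members lack it and signal through the adaptor DAP12, encoded by Tyrobp. The family is best known from natural killer cells, each of which displays only some of the receptors, and it is also carried by a subset of memory-phenotype CD8 T cells.

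The tail that sets the sign of the signal is encoded at the start of the coding sequence, so its first 60 bases are shown for Klra3 and Klra8, which rose in cTKO cells, and for Klra7 and Klra4, an inhibitory and an activating member that did not pass the test. The sequences come from GENCODE transcripts on GRCm38, run from 5′ to 3′ and lie on the minus strand at chr6:130335740-130335799 for Klra3, chr6:130231558-130231617 for Klra7, chr6:130128101-130128160 for Klra8 and chr6:130065243-130065302 for Klra4. Capitals mark codons 6 to 11, the stretch of the ITIM, whose tyrosine is codon 8.
Klra3: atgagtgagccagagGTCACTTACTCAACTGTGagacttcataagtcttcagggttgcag
Klra7: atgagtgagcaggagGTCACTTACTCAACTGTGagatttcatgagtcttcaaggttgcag
Klra8: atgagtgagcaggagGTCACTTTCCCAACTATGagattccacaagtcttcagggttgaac
Klra4: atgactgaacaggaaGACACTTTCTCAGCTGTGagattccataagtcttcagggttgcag
Klra3 and Klra7 have a tyrosine codon (tac) at codon 8, while Klra8 and Klra4 have a phenylalanine codon (ttc) there. Of the 10 members, 8 hold the whole motif and 2, Klra4 and Klra8, do not. This divides the family into 8 inhibitory and 2 activating receptors.

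In CD8 T cells of cTKO animals 2 members were higher, the inhibitory receptor gene Klra3 and the activating receptor gene Klra8, and none was lower. Of the 10 members, 9 were tested, 7 of them did not pass at an adjusted p under 0.05 (Benjamini-Hochberg, the authors' DESeq2 test), and Klra2 had too few reads for an adjusted p. At an unadjusted p under 0.05 there were 3 higher members and 0 lower in the authors' test. A limma fit on the recovered reads had 4 higher and 1 lower at that threshold. The share of all tested genes at the unadjusted threshold was not computed, so these counts have no background to be read against. At the adjusted threshold, calls in the authors' deposited table were higher for 9.77% of the 12972 tested genes and lower for 3.61%. The median log2 fold change, the log2 ratio of cTKO over WT, was 1.46 over the 9 tested members and 0.04 over all tested genes. Among the 6951 tested genes with a mean normalized count of 5 to 600, the range around that of the members, the median was 0.31, 13.5% were higher and 2.83% were lower.

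The table holds no column for single samples, but its means could be resolved into whole reads of each library for 99.8% of the 14173 genes below a mean of 1000, every member among them. Values below are given in the order larger WT, smaller WT, larger cTKO and smaller cTKO library, where size is the DESeq2 size factor (1.214, 0.866, 1.207 and 0.805). Normalized reads are reads divided by that factor. Summed over all genes, the mean normalized count came to 16257610. The 2 animals of a genotype differ in sex as labelled, and the spread between them includes it. The table does not name the numerator of its fold changes, and they were read as cTKO over WT on the ground that 3 H1 genes, Hist1h1e, Hist1h1d and Hist1h1c, are negative (Hist1h1e had 64, 112, 0 and 0 reads). So used, they say nothing more about the labels.

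Marker genes of CD8 T cells were high in the samples: all 9 of them, Cd3d, Cd3e, Cd3g, Cd8a, Cd8b1, Cd5, Cd6, Lat and Thy1, had mean normalized counts of 1000 or more, and 8 did not pass while Lat was lower in the authors' deposited table. Natural killer cell markers did not all move in the same direction. Of 13 listed genes 10 were tested, 5 were higher (Eomes, Gzma, Itga2, Klrb1c and Tyrobp) and 1, Fcer1g, was lower. Ncr1, Fcgr3, Prf1 and Cd244a did not pass. Their log2 ratios in the authors' deposited table included -5.19 for Fcgr3 (adjusted p 0.0503), -0.24 for Prf1 (adjusted p 0.69) and 0.95 for Cd244a (adjusted p 0.482). The summed normalized reads of the 9 genes with reads per library were 328, 276, 1924 and 1481. In the cTKO libraries most of that sum came from Klrb1c (1330 and 1094) and Tyrobp (364 and 250). Ncr1, which defines the lineage, had 2, 4, 22 and 1 reads, and Sh2d1b2 was at 0. Myeloid markers summed to 95.5, 103, 2466 and 819, in the cTKO libraries nearly all from the integrin genes Itgam and Itgax. Cd14 and Adgre1 had at most 4 reads in any library. Csf1r had 2, 3, 25 and 6 reads and Lyz2 20, 11, 43 and 6. S100a8 had 0, 0, 22 and 0 reads and S100a9 0, 0, 19 and 0. Csf1r, Lyz2, S100a8 and S100a9 were thus highest in the larger cTKO library. B cell markers summed to 1381, 975, 195 and 222. The part of other cells in the results on Ly49 genes was not tested, and in bulk samples fewer cells of a type and less RNA per cell cannot be told apart.

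Klra3 encodes Ly49C, an inhibitory receptor that binds the class I protein H-2Kb of C57BL/6 mice. The gene (Entrez 16634, chromosome 6, 130323289 to 130337626, GRCm38.p6, minus strand) had 111, 88, 926 and 850 reads, or 91.4, 102, 767 and 1056 normalized reads. Both cTKO libraries exceeded both WT libraries, and the libraries of a genotype lay close together. The log2 ratio in the authors' deposited table was 3.24 (SE 0.36, adjusted p 6.88e-17, DESeq2), a 9.45-fold increase.

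Klra8 encodes Ly49H, the activating receptor that binds the m157 protein of mouse cytomegalovirus. The gene (Entrez 16639, chromosome 6, 130115226 to 130129898, minus strand) had 3, 3, 206 and 75 reads, or 2.47, 3.46, 171 and 93.2 normalized reads. It was near the detection limit in WT and well covered in both cTKO libraries, of which the larger was 1.83-fold above the smaller after normalization. The log2 ratio was 5.51 in the authors' deposited table (SE 0.83, adjusted p 2.86e-09, DESeq2), a 45.4-fold increase. The ratio of the pooled reads, corrected for library size, was 48.4, with an exact 95% interval of 22 to 133 that covers counting error only. Without the larger cTKO library the limma fit on recovered reads gave a log2 ratio of 4.58 for Klra8 (adjusted p 0.123) and 3.44 for Klra3 (adjusted p 0.0571). Without the smaller cTKO library it gave 5.45 (adjusted p 0.0798) and 2.98 (adjusted p 0.0679). Neither gene therefore passed in that fit with 1 cTKO library, and both passed with 1 WT library.

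**Figure D1:**
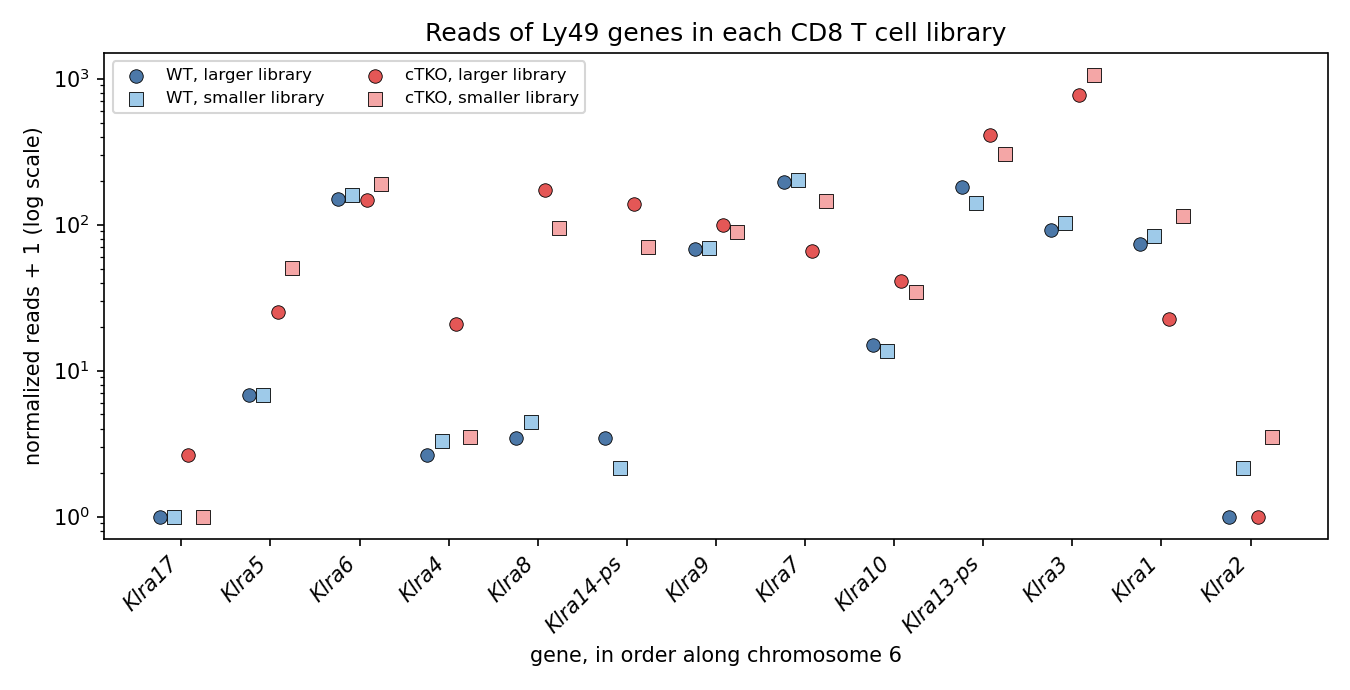
Normalized reads plus 1 on a log scale (vertical axis) of 13 Klra genes in order along chromosome 6 (horizontal axis), with 1 point for each CD8 T cell library. Klra3 rose to 767 and 1056 normalized reads from 91.4 and 102 and Klra8 from 2.47 and 3.46 to 171 and 93.2, while the points of Klra6 and Klra1 overlap between genotypes.

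The other activating member, Klra4, encodes Ly49D and had 2, 2, 24 and 2 reads. Only the larger cTKO library stood out, with 19.9 normalized reads against 1.65, 2.31 and 2.48 in the other libraries. The same library held 22 of the 29 reads of Ncr1 and all 22 reads of the neutrophil gene S100a8, and the part of those cells in the Klra4 value was not tested. The log2 fold change of Klra4 was 2.53 in the authors' deposited table (SE 1.74, adjusted p 0.361). Klra8 and Klra4 signal through the same adaptor, and their ratio of normalized reads was 1.5 in each WT library and 8.58 and 37.5 in the cTKO libraries. Each WT ratio is 3 reads over 2, and that of the smaller cTKO library is 75 over 2. These ratios are therefore unreliable.

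Klra5, which encodes the inhibitory receptor Ly49E, had 7, 5, 29 and 40 reads, or 5.76, 5.77, 24 and 49.7 normalized reads. Both cTKO libraries exceeded both WT libraries, yet by the authors' deposited table the gene just missed the threshold (log2 ratio 2.67, SE 0.98, adjusted p 0.0501). In the limma fit it passed, with a log2 ratio of 2.40 (adjusted p 0.0321). Klra10, encoding Ly49J, had 17, 11, 48 and 27 reads and a log2 ratio of 1.46 in the authors' deposited table (SE 0.85, adjusted p 0.265). Its cTKO libraries too lay above those of WT, at 39.8 and 33.5 against 14 and 12.7 normalized reads.

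Klra9 encodes Ly49I, an inhibitory receptor for H-2b class I proteins like Ly49C. It had 82, 59, 118 and 71 reads, or 67.5, 68.1, 97.7 and 88.2 normalized reads. The groups did not overlap, but the difference was small, with a log2 ratio of 0.46 in the authors' deposited table (SE 0.52, adjusted p 0.623). Klra6, encoding Ly49F, had 180, 137, 176 and 151 reads, and its normalized values of 148, 158, 146 and 188 overlapped between the genotypes. Its log2 ratio was 0.12 in the authors' deposited table (SE 0.43, adjusted p 0.893).

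Klra7 and Klra1 encode Ly49G and Ly49A, inhibitory receptors known for binding H-2Dd, a class I protein that C57BL/6 mice lack. Klra7 had 236, 174, 78 and 117 reads, or 194, 201, 64.6 and 145 normalized reads. It was the 1 member with both cTKO libraries below both WT libraries, but it did not pass in the authors' deposited table (log2 ratio -0.92, SE 0.49, adjusted p 0.214). Klra1 had 88, 72, 26 and 92 reads, with normalized values of 72.5, 83.1, 21.5 and 114. The cTKO libraries lay on either side of the WT pair, the larger at 0.188 times the level of the smaller. The log2 fold change of Klra1 was -0.21 in the authors' deposited table (SE 0.71, adjusted p 0.887), and without the larger cTKO library the limma fit gave 0.55 (adjusted p 0.432). Klra2, encoding Ly49B, had 0, 1, 0 and 2 reads and was not tested.

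Across the family both cTKO libraries exceeded both WT libraries in 6 members (Klra3, Klra4, Klra5, Klra8, Klra9 and Klra10) and below them in 1. In Klra4 this order rests on 2 reads in each of 3 libraries and is set by library size alone. Among the 8959 tested genes with reads per library the groups were apart upward in 37.1% and downward in 22.3%.

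Summed over the 10 members, normalized reads were 598, 637, 1351 and 1773, so that cTKO held 2.53 times the WT mean. Without Klra3 the sums were 506, 536, 584 and 717, a ratio of 1.25. Without Klra3 and Klra8 they were 504, 532, 413 and 624, a ratio of 1, and the genotypes overlapped. The 8 inhibitory genes together gave 594, 632, 1160 and 1677 normalized reads, and the 2 activating genes 4.12, 5.77, 190 and 95.7. With 2 libraries against 2 an exact two-sided permutation test of such a sum cannot go below p = 0.33, and none is given.

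The make-up of the family's reads was almost the same in the WT libraries and differed in cTKO. Klra7 held 32.5% and 31.5% of the members' normalized reads in WT and 4.78% and 8.2% in cTKO. Klra6 went from 24.8% in each WT library to 10.8% and 10.6%. Klra3 held 56.8% and 59.6% in cTKO, against 15.3% and 15.9% in WT, more than all other members together. Klra8 went from 0.413% and 0.543% to 12.6% and 5.26%. A share falls when another member rises, and Klra6 shows this, since its own level overlapped between genotypes. The ratio of Klra3 to Klra7 was 0.47 and 0.506 in WT and 11.9 and 7.26 in cTKO.

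**Figure D2:**
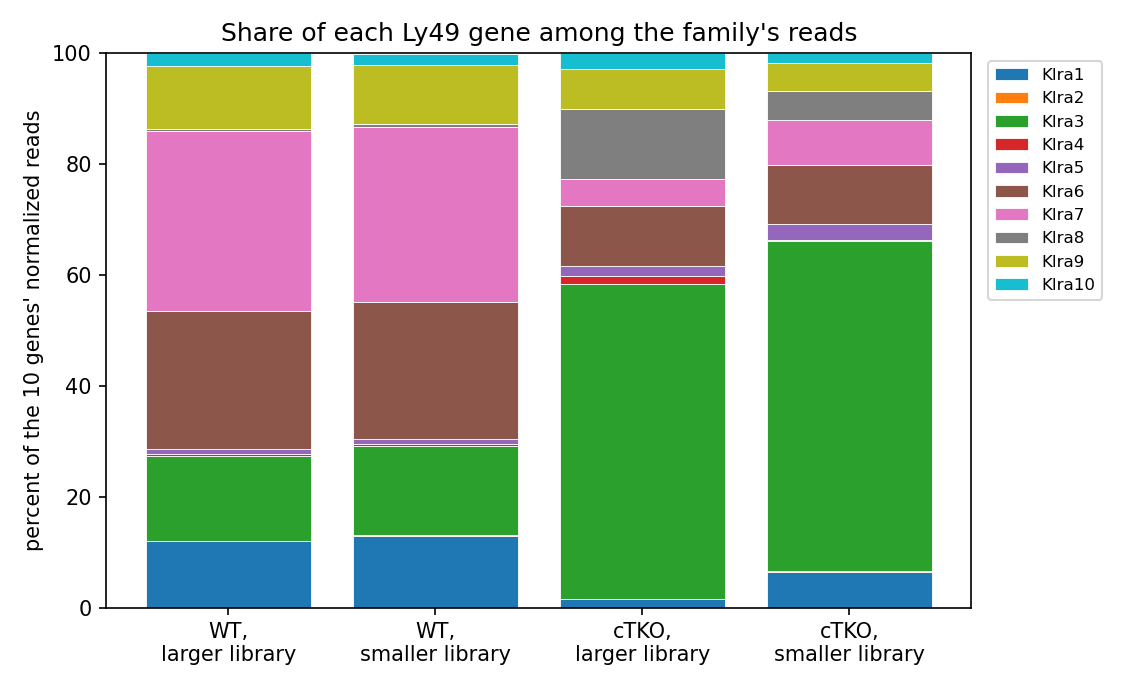
Stacked bars give the percentage of the 10 members' normalized reads (vertical axis) that each gene held in each CD8 T cell library (horizontal axis). Klra3 took 15.3% and 15.9% in the WT libraries and 56.8% and 59.6% in the cTKO libraries, and Klra7 took 32.5% and 31.5% against 4.78% and 8.2%.

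Levels of different genes were compared per kilobase of exon. In WT the order by mean normalized reads per kilobase was Klra7 (156), Klra6 (137), Klra3 (78), Klra9 (53), Klra1 (44.1), Klra10 (16.2), Klra5 (4.13), Klra8 (2.52), Klra4 (1.59) and Klra2 (0.304). The 2 WT libraries of neighbouring members did not overlap down to Klra5, while Klra8, Klra4 and Klra2 rest on 3 or fewer reads a library and have no reliable order. In cTKO Klra3 came first, at 736 normalized reads per kilobase, followed by Klra6 (149), Klra8 (112), Klra7 (83), Klra9 (72.7), Klra10 (44.5), Klra1 (38.5), Klra5 (26.4), Klra4 (8.98) and Klra2 (0.655). The cTKO values of Klra6 (131 and 168) overlapped those of Klra8 (145 and 79.1), and Klra7 (51.1 and 115) overlapped Klra8 and Klra9 (76.4 and 69). Klra1, at 12.2 and 64.8, spanned the values of both Klra10 and Klra5. The first place of Klra3 stood clear of that spread. Klra2 came last, at 0 and 1.31, but it and Klra4 each had 2 reads in the smaller cTKO library. Their order in that library is set by exon length alone.

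Near-identical copies limit how far reads can be assigned to a single Ly49 gene. Over 45 pairs of members the identity of the coding sequence ran from 70.7% to 96.9%, with a median of 80.8%. Klra9 and Klra10 were the closest pair, and Klra3 shared 96.2% of its coding bases with Klra10 and 95.9% with Klra9. Of all 100-base windows of the annotated transcripts, 98.2% were unique to the gene for Klra3 and 85.6% for Klra8, which shared 13.7% of its windows with Klra14-ps. At 50 bases the unique share was 79.3% for Klra3 and 66.9% for Klra8, and at 150 bases 100% and 94%. Klra22 and Klra23 had reads but were not among these annotated transcripts, so windows shared with them were not counted. The read length and the handling of multiply mapped reads were not given in the sources used here. Reads were therefore also summed over copies before the limma fit, a choice made after the data were seen. Klra3, Klra9 and Klra10 together had 210, 158, 1092 and 948 reads and a log2 ratio of 2.53 (SE 0.30, adjusted p 0.0014, limma). Klra8 and Klra14-ps together had 6, 4, 373 and 131 reads and a log2 ratio of 5.29 (SE 0.49, adjusted p 0.00073, limma).

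Beside the members there were 8 further Klra symbols, of which 5 had reads, 3 were tested and 2 were higher. Klra14-ps, a transcribed pseudogene (chromosome 6, 130149106 to 130160748) whose transcript is 96.7% identical to the coding sequence of Klra8, had 3, 1, 167 and 56 reads. Its log2 ratio was 5.78 in the authors' deposited table (SE 0.98, adjusted p 1.76e-07), and its pooled reads had a ratio of 57.6 with an exact 95% interval of 22.2 to 213. Klra13-ps, another transcribed pseudogene (chromosome 6, 130291161 to 130306432), had 220, 120, 495 and 244 reads. It passed in the authors' deposited table (log2 ratio 1.16, SE 0.40, adjusted p 0.0309) and not in the limma fit (adjusted p 0.0643). Klra23 had 15, 7, 35 and 9 reads and did not pass (adjusted p 0.615 in the authors' deposited table). Klra17 had 0, 0, 2 and 0 reads, Klra22 had 0, 0, 1 and 3, and Klra12, Klra15 and Klra21 were listed at 0.

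Klra3 and Klra9 lie in the same cluster and have closely similar bases before a RefSeq transcript start, while their fold changes were 3.24 and 0.46 in the authors' deposited table. The 250 bases before that start are shown for that reason, from GRCm38.p6 and 5′ to 3′ on the minus strand, at chr6:130337627-130337876 for Klra3 and chr6:130193113-130193362 for Klra9. The Klra3 stretch lies outside the gene, while the Klra9 stretch lies inside the RefSeq gene, whose outermost end is at 130194374. Capitals mark the aligned bases that differ.
Klra3: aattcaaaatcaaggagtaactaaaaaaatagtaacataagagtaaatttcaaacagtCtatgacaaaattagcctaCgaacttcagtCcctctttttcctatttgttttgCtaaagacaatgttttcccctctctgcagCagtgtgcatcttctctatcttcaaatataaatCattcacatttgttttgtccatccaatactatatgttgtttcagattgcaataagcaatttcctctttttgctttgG
Klra9: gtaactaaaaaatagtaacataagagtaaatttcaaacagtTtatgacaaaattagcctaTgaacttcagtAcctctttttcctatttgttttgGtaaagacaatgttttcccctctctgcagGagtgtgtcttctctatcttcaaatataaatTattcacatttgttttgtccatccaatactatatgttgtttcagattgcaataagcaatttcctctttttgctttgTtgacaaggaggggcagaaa
Of 231 aligned bases 224 were identical (97%) and 7 differed, with 2 gaps inside the alignment. The ratio of Klra3 to Klra9 in normalized reads was 1.35 and 1.49 in WT and 7.85 and 12 in cTKO, so the groups did not overlap. The difference between the fold changes was not tested beyond this.

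Short motifs of 5 families of lymphocyte transcription factors were searched on both strands in the 250 bases before to 50 bases after each start, over 13 Klra starts, some of them inside a gene's outermost end, and 32851 promoters in all. The T-box letters TCACAC were found at 1 Klra start (14.5% of all promoters), the RUNX letters TGTGGT at 1 (16.8%) and the TCF/LEF letters CTTTGA at 3 (16%). The ETS letters GGAAGT were found at 0 Klra starts (23.8% of all promoters) and the GATA letters AGATAA at 2 (11.2%). None of these letters lay in the windows of Klra3 or Klra8.

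The cluster runs from Klra17 to Klra1 over chromosome 6, 129831154 to 130386874, all on the minus strand, and Klra2 stands 812.1 kb apart from it. In this stretch 11 genes were tested, 4 were higher (Klra8, Klra14-ps, Klra13-ps and Klra3) and 0 were lower in the authors' deposited table, and the median log2 fold change was 1.46. The higher genes were not neighbours throughout: Klra8 and Klra14-ps lie side by side, then come Klra9, Klra7 and Klra10, which did not pass, and then Klra13-ps and Klra3. Klra1, the next gene after Klra3 at a distance of 26.3 kb, did not pass either. The adjoining part of the natural killer gene complex, from Klrb1a to Klrh1, held 19 tested genes, of which 9 were higher and 1 lower, with a median of 1.35. In the 1 Mb before the complex 2 of 8 tested genes were higher (Tspan9 and Foxm1), and in the 1 Mb after Klra2 1 of 3 (Styk1, log2 fold change 6.18 in the authors' deposited table, SE 0.53).

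**Figure D3:**
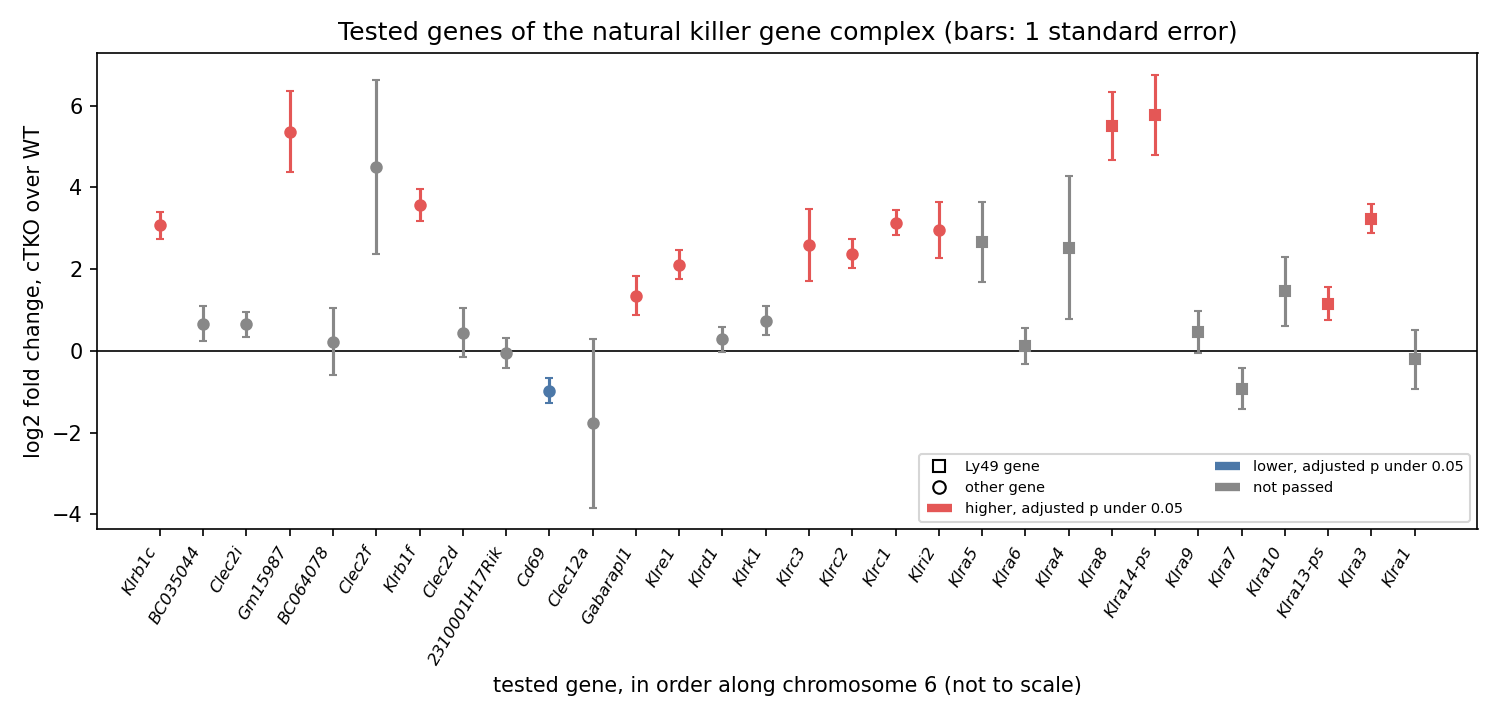
Log2 fold change of cTKO over WT in the authors' test, with bars of 1 standard error (vertical axis), for the tested genes from Klrb1c to Klra1 in order along chromosome 6 (horizontal axis, not to scale), with squares for Ly49 genes. Higher genes (4 of 11 in the Ly49 cluster and 9 of 19 before it) stand singly or in runs, with genes that did not pass between them. Klrc3, Klrc2, Klrc1 and Klri2 form such a run, and Klra8 with Klra14-ps another.

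Of the genes that carry the signal of these receptors, Tyrobp, the DAP12 adaptor of the activating members, was higher, with 28, 23, 440 and 201 reads and a log2 ratio of 3.64 in the authors' deposited table (SE 0.47, adjusted p 2.31e-12). Its reads, like those of Klra8, were more numerous in the larger cTKO library after normalization, by 1.46-fold. It was the 1 gene called among 11 tested genes of the activating arm, whose median log2 ratio was 0.43. Hcst, the DAP10 adaptor, had a log2 ratio of 0.43 in the authors' deposited table (adjusted p 0.434). In the inhibitory arm 1 of 3 genes was called: Ptpn6, the phosphatase SHP-1, was lower, with a log2 ratio of -0.93 in the authors' deposited table (SE 0.30, adjusted p 0.0223). Ptpn11 (0.32, adjusted p 0.586) and Inpp5d (0.62, adjusted p 0.19) did not pass in the authors' deposited table.

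The ligands of the family are class I proteins, and of 14 tested genes for them and their loading 3 were higher and 1 lower, with a median log2 fold change of 0.05. H2-K1, which encodes the ligand of Ly49C, had a log2 ratio of 0.06 in the authors' deposited table (SE 0.29, adjusted p 0.924), H2-D1 one of -0.35 (adjusted p 0.483) and B2m, the light chain, one of 0.44 (adjusted p 0.368). The higher genes were the non-classical H2-Q4, H2-Q6 and H2-Q7, with log2 fold changes of 1.91, 1.23 and 1.77 in the authors' deposited table. Tapbp, which helps to load peptide, was lower (-1.03, adjusted p 0.00784, authors' deposited table). The class I Q genes are close copies of each other, so their reads are uncertain too.

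Of 21 tested transcription factors of natural killer and T cells 9 were higher and 2 lower, with a median log2 fold change of 0.84. The T-box factors Eomes and Tbx21 were higher (log2 fold changes 2.08 and 1.71 in the authors' deposited table), as were Id2, Ikzf3, Nfil3, Gata3, Runx1, Prdm1 and Zeb2. Id3 and Tox were lower (-3.25 and -1.31 in the authors' deposited table). Tcf7, known for its role in Ly49 expression, did not pass in the authors' deposited table (-0.50, SE 0.33, adjusted p 0.325), and neither did Ikzf2, a marker of Ly49-bearing regulatory CD8 T cells (0.94, SE 0.50, adjusted p 0.211, authors' deposited table).

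Among the other lectin receptors, most of them from the same complex, 8 of 13 tested genes were higher (Klrb1c, Klrb1f, Klrc1, Klrc2, Klrc3, Klre1, Klrg1 and Klri2) and 1, Cd69, was lower, with a median log2 fold change of 2.38. Klrc1, the inhibitory NKG2A receptor, had a log2 ratio of 3.14 in the authors' deposited table (SE 0.31, adjusted p 7.44e-22). In the list for memory-phenotype CD8 T cells 7 of 13 tested genes were higher and 0 lower, with a median of 1.06. They were Cd44, Il2rb, Cxcr3, Eomes, Fasl, Il15ra and Ly6c2, and Il2rb, the shared receptor chain for interleukins 2 and 15, had a log2 ratio of 1.51 in the authors' deposited table (SE 0.29, adjusted p 4.61e-06).

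**Figure D4:**
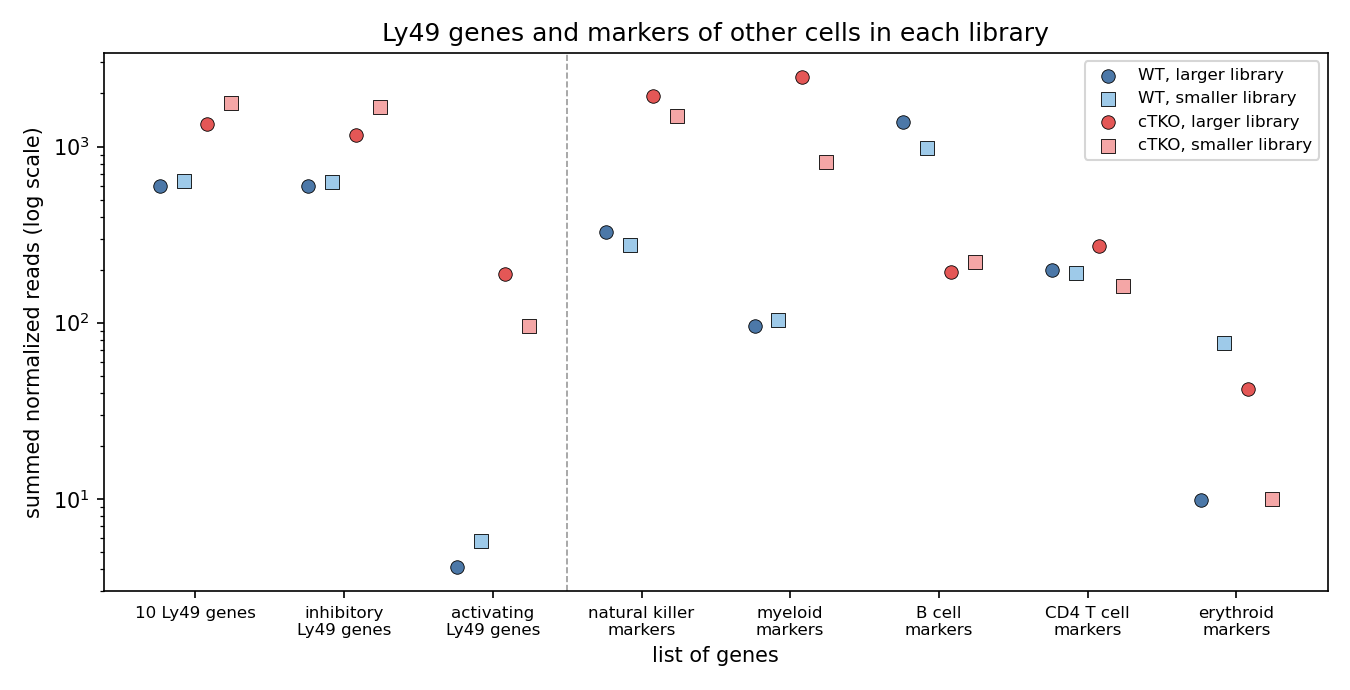
Summed normalized reads on a log scale (vertical axis) of the Ly49 genes and of marker lists for other cells (horizontal axis), with 1 point for each CD8 T cell library and genes without reads per library left out. The 10 Ly49 genes summed to 1351 and 1773 in the cTKO libraries against 598 and 637 in WT, natural killer markers to 1924 and 1481 against 328 and 276, and B cell markers to 195 and 222 against 1381 and 975. Klrb1c alone gave 1330 and 1094 of the natural killer marker sums in cTKO.

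The pattern of Klra3, the member with the highest mean, over the 4 libraries was set beside that of 6107 genes whose mean was 50 or more, by the distance between centred values of log2(normalized reads + 1). The nearest 5 were Asph (distance 0.22), Apol10b (0.35), Zc2hc1a, Tmem51 and Myo6 (0.36 each). Asph, a hydroxylase of the endoplasmic reticulum, had 10, 10, 104 and 88 reads. Myo6, an unconventional myosin, had 84, 61, 899 and 732. The other Ly49 genes with such a mean were farther away: the rank of Klra8 was 440 and that of Klra13-ps 551. The members Klra2, Klra4, Klra5 and Klra10 had lower means and were not ranked. With 4 libraries this likeness is a description only.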

How the data were processed

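Paired-end libraries were made from polyadenylated RNA, per the labels' protocols. STAR, DESeq2, mm10 and GRCm38.p6 are named in the submitters' processing notes. Versions, annotation, counter and strand handling were not given in the sources used here. Each gene has a mean over 4 libraries, a signal that the authors obtained from read counts over size factors, as given per the file headers. The authors deposited fold changes with their standard errors on the log2 scale. The deposited score is the authors' Wald statistic, and p-values and adjusted p-values are as the authors deposited them. Genes without an adjusted p had a mean of at most 3.43.

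Reads per library were worked back from each mean as a sum of 4 whole numbers times what 1 read is worth, with the deposited fold change as a second condition (median error 6.32e-07 on the log2 scale). This gave 14140 of 14173 genes with a mean under 1000. In a test on simulated data 1189 of 1191 had 1 solution, and all 1189 were right. The simulated reads were drawn around those of solved genes with reads in every library. Unsolved genes and genes without reads in some library, such as Klra2, were not sampled. Which library is which animal was not assigned. Because the file holds no sample columns, limma 3.58.1 (R 4.3.3) on log2(normalized reads + 1) over 8959 genes served as an alternative and the authors' test as the main one. On simulated reads of this comparison over 8959 genes limma found 97 of 100 genes changed by a log2 fold of 2, 100 of 100 changed by 4, and called 6 unchanged genes. Every simulated gene had the same dispersion, and changed genes were taken only above a minimum mean. Detection of changes in genes with more spread or fewer reads was not simulated. Calls use an adjusted p under 0.05. No replicate-level count test was run. Intervals of reads cover counting error only.

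All Klra symbols in the table are named, and of the lists those genes called or defining a role. The 5 genes most like Klra3 were taken by distance. The members and lists were chosen with earlier results of these data known. Positions and promoters are from RefSeq on GRCm38.p6, joined on the Entrez identifier for 24387 genes, and transcripts from GENCODE on GRCm38. Alternatives were thresholds of 0.01 and 0.1, no filter, a mean of at least 50, re-centring, pseudocounts of 0.5 and 4, each library left out, and copies summed.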

Additional observations from a re-analysis of the deposited data

How the results depend on the processing

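The count of 2 higher members, Klra3 and Klra8, was the same at adjusted p thresholds of 0.05 and 0.01, with no filter on the mean, with a mean of at least 50, and in limma fits that left out either WT library. Klra5 was called as well, for a count of 3, at a threshold of 0.1, after re-centring and in limma with pseudocounts of 0.5, 1 and 4. With a library left out limma called from 0 to 2 members, 0 without either cTKO library, where the lone cTKO library was assumed to vary like the WT pair and 3 (without the larger) and 5 (without the smaller) members were higher, and 0 and 2 lower, at an unadjusted p under 0.05. The fold change kept its sign in 72 of 74 alternatives. It turned for Klra1 without the larger cTKO library (0.55, against -1.80 without the smaller) and for Klra6 without the smaller (-0.07, against 0.29 without the larger), and the cause was not tested. Klra3 ran from 2.53 to 3.44 and Klra8 from 4.23 to 5.61 on the log2 scale, and each passed in 7 of 9 alternatives. Re-centring on genes with a mean of at least 100 removed a shift of -0.10 and turned 1268 higher and 468 lower genes (73.0% higher) into 1484 and 342 (81.3%). Over the 8959 genes with reads per library the authors' test called 1012 higher and 260 lower, limma 902 and 195, and limma with a library left out from 213 to 354 higher and from 1 to 26 lower. The lists and the complex held 32 and 14 called genes, and these counts stayed within 1.5 times under their alternatives. No paired analysis was possible because the recovered libraries carry no label that ties them to an animal or its sex, and the groups share no animal number. Depth limits Klra2, Klra4 outside the larger cTKO library and the WT level of Klra8, which rest on 3 or fewer reads a library.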

Other observations

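Reads of Klra22 (0, 0, 1 and 3) and of Klra23 (15, 7, 35 and 9) were listed although the RefSeq table places neither gene on chromosome 6 of the primary assembly, and how the authors' annotation placed them was not given in the sources used here. Klra3 and Klra5 were higher in the smaller cTKO library than in the larger after normalization (ratios of larger to smaller 0.726 and 0.483), while Klra8 and Klra14-ps were lower in it (1.83 and 1.99).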
